A study of Mus musculus with 60 samples.

Results

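Pre-mRNA splicing factors, hnRNP proteins and snRNP proteins were examined in 5 mouse cell lines. The list held 56 genes, and its members were the array probes whose annotated or current symbol was on that list. Probes for 52 of the 56 genes were present, and Hnrnpa3, Hnrnpf, Srsf7 and Sf3b2 had none. These 52 genes had 60 distinct probes, among 21692 distinct probes in the whole series. Of the 60 probes, 45 probes of 42 genes had a value for 2 or more cultures in each line and could be tested, among 9709 tested probes in all.

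Of the lines, WTA had high and WTD low levels of wild-type Pabpn1 by their labels, D7E had high and D7F low levels of mutant Pabpn1, and IM2 was the untransfected line. Each combination of genotype and level was a single line, so a difference between 2 lines cannot be told apart from a difference between 2 isolates. The labels used here do not name the mutation, the promoter that drives the transgene or the tissue of the line. Total RNA of 3 cultures a line was hybridised on 2-colour arrays against a common IM2 reference, on 2 array parts with different probes and with both dye orientations, which makes 60 arrays.

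PABPN1 is the nuclear poly(A)-binding protein, and a short alanine expansion in it causes oculopharyngeal muscular dystrophy, the disease in the series title. The spliceosome that removes introns is assembled from small nuclear ribonucleoproteins (snRNPs), each an RNA with a ring of Sm proteins and proteins particular to that snRNP. SR proteins bind exons and mostly promote the use of nearby splice sites, while hnRNP proteins coat pre-mRNA and often repress them. In muscle, MBNL and CELF proteins regulate many of the same exons in opposite directions, a balance that is disturbed in myotonic dystrophy.

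All values are log2 ratios of a culture over the IM2 reference, the mean of the 2 dye orientations of that culture. The deposited values were taken to be log10 ratios, so sizes hold only for that base. Differences are between line means, fitted with limma across all 9709 probes, and a probe was called at a Benjamini-Hochberg adjusted p under 0.05. Pabpn1 itself averaged 2.19 ± 0.29 in WTA cultures, 1.43 ± 0.07 in WTD cultures, 1.61 ± 0.14 in D7E and 0.92 ± 0.11 in D7F, against -0.18 ± 0.06 in IM2 (log2 ratio, SD, n = 3 cultures each). Its order by line followed the labelled levels within each genotype. Array quality varied, with 10 of 60 arrays having over 20% of filled values at the deposited limits or under 75% of rows filled, and 6 of these were IM2 arrays. IM2 culture 1 was poor on all of its arrays of both parts. In RNA of a whole culture, fewer cells of a type and less RNA per cell cannot be told apart.

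Members were called between the transfected lines and IM2 at about the share of all tested probes. Of the 45 tested probes, 5 were higher and 2 were lower in the mean of the 4 transfected lines than in IM2, together 15.6%. Over all tested probes, 6.41% were called higher and 8.84% lower in that comparison. The higher members were Celf1, Snrpb, Srsf5, Hnrnph2 and Srsf10, and the lower ones were Srsf9 and Ptbp1. The median difference over the 45 probes was 0.04, against 0.03 over all tested probes. At an unadjusted p under 0.05 there were 12 of 45 member probes, against 2976 of 9709 probes in all. The other 38 of 45 member probes did not pass the adjusted threshold.

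**Figure D1:**
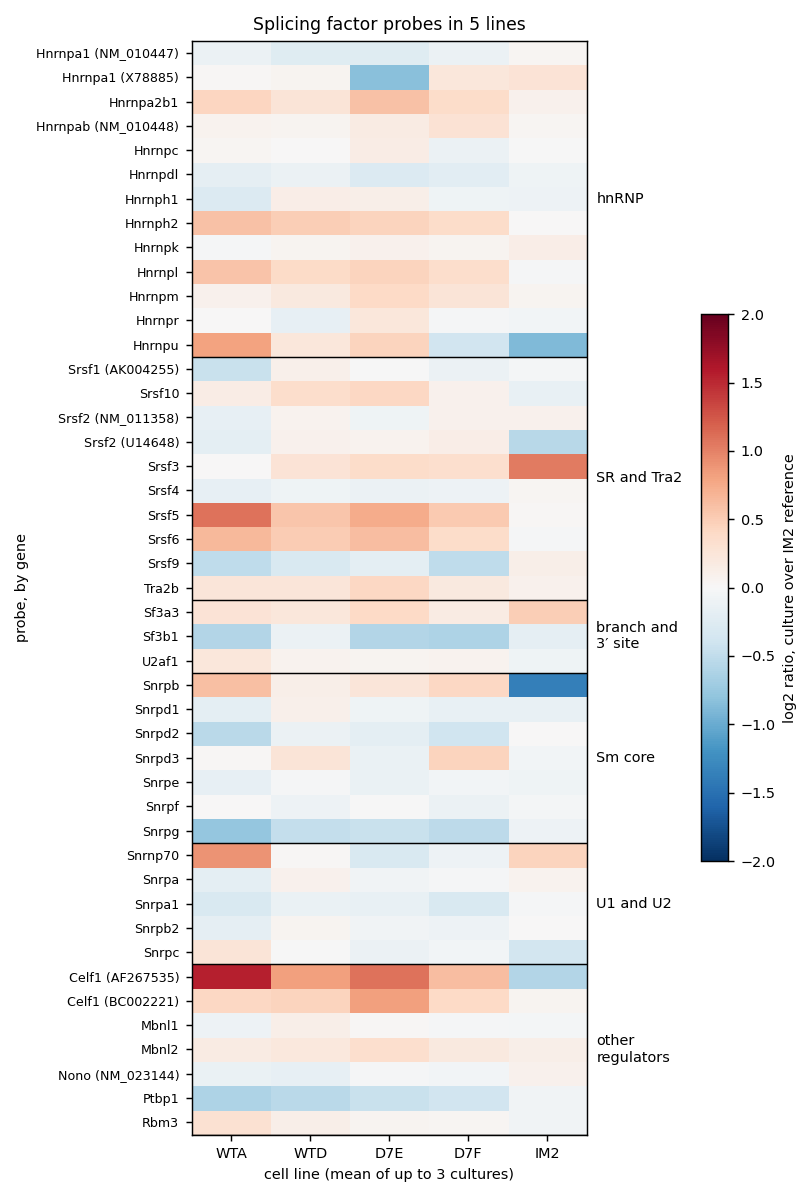
Mean log2 ratio over the IM2 reference of each of the 45 tested member probes (rows, grouped by role) in the 5 lines (columns, each the mean of up to 3 cultures). Red is higher and blue lower than the reference. Most rows are pale in every line, and the median range of a probe over the 5 lines was 0.42. Rows red in all 4 transfected lines include both Celf1 probes, Srsf5, Srsf6, Hnrnph2 and Hnrnpl, of which Srsf6 and Hnrnpl were not called. Those blue in all 4 include Ptbp1, Snrpg, Srsf9 and Snrpd2.

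Line by line, WTA had 4 higher and 4 lower member probes relative to IM2, where 5.17% and 6.38% of all tested probes were called higher and lower. WTD had 2 higher and 1 lower, against a background of 2.08% and 4.95%. D7E had 5 higher and 1 lower, with 4.13% and 8.22% of all probes called. D7F had 2 higher and none lower, with 1.6% and 2.91% called. At an unadjusted p under 0.05 it had 9 of 45 member probes, against 2008 of 9709 probes in all. These 4 comparisons share the IM2 cultures, so their calls are not independent. In the test for any difference among the 5 lines, 3 member probes passed, those of Celf1, Srsf5 and Ptbp1, where 10.2% of all tested probes did.

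Among the hnRNP proteins, 13 probes of 12 genes were tested, and Hnrnph2 was the only one called. Hnrnph2, a G-run binding hnRNP that regulates exon choice, was higher in all 12 transfected cultures than in every IM2 culture. Its log2 ratios were 0.43, 0.72 and 0.58 in WTA cultures, 0.39, 0.42 and 0.67 in WTD cultures, 0.43, 0.37 and 0.56 in D7E and 0.18, 0.40 and 0.54 in D7F, against -0.07, 0.04 and 0.03 in IM2. The groups did not overlap. The mean of the 4 lines was 0.47 higher than IM2 (SE 0.10, 1.39-fold, limma adjusted p = 0.00828), and WTA (0.58, p = 0.0122), WTD (0.49, p = 0.0357) and D7E (0.45, p = 0.0342) were each called. The dye mattered for the level of this probe: in every culture the array with the culture RNA in channel 1 gave the higher ratio, up to 1.32 in WTA culture 2, and all 3 IM2 cultures were positive in channel 1 and negative in channel 2. The call was lost without the poor arrays (0.41, adjusted p = 0.148) and in channel 2 alone (0.39, adjusted p = 0.096). The WTD and D7E calls were each lost in 13 of 26 alternative settings, among them without any 1 culture of the same line, IM2 culture 1 or IM2 culture 3, and the WTA call in 5.

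Hnrnpu, a chromatin-bound hnRNP also known as scaffold attachment factor A, had the widest range of the hnRNP probes, 1.69 between its highest and lowest line mean. Its log2 ratios were 1.13 and 0.49 in WTA cultures, 0.33, 0.18 and 0.14 in WTD cultures, 0.19 and 0.69 in D7E and -1.30 and 0.54 in D7F, against -0.27 and -1.49 in the 2 measured IM2 cultures. The groups overlapped, and the difference of 1.15 (SE 0.47) was not called (limma adjusted p = 0.137). It was called in channel 2 alone (2.83, adjusted p = 0.0384). Hnrnpa1, which silences exons and shuttles between nucleus and cytoplasm, had 2 probes that gave -0.22 (adjusted p = 0.273) and -0.40 (adjusted p = 0.524). The second Hnrnpa1 probe had a value of -2.41 in D7E culture 2, while its other values lay between -0.49 and 0.38. At the other end, Hnrnpk, a poly(C)-binding hnRNP, and Hnrnpdl, a relative of the AU-rich element binding protein encoded by Hnrnpd, varied little, with ranges of 0.15 and 0.19 over the 5 lines. The median difference of the 13 hnRNP probes was 0.08, from -0.40 to 1.15.

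Among the SR and Tra2 proteins, 10 probes of 9 genes were tested, with 2 called higher and 1 lower. Srsf5, an SR protein, was higher in every transfected line. It had log2 ratios of 1.22, 0.86 and 1.16 in WTA cultures, 0.76, 0.49 and 0.39 in WTD cultures, 0.74, 0.56 and 0.92 in D7E and 0.34, 0.59 and 0.64 in D7F, against 0.21, -0.01 and -0.15 in IM2. The lowest transfected culture lay above the highest IM2 culture, and the 3 WTA cultures included the highest values. The mean difference was 0.71 (SE 0.12, 1.63-fold, limma adjusted p = 0.00291). By line, the difference was called in WTA (1.07, p = 0.0014) and D7E (0.72, p = 0.0115), and the fit gave 0.53 in WTD (adjusted p = 0.0595) and 0.51 in D7F (adjusted p = 0.0899). All 24 arrays of transfected cultures gave a positive ratio. The call in the mean held in all 25 alternative settings, with differences of 0.62 to 0.80 and adjusted p-values of 0.00103 to 0.0403.

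Srsf10, an SR-related protein that represses splicing when it is dephosphorylated, had log2 ratios of 0.31, 0.33 and -0.19 in WTA cultures, 0.40, 0.44 and 0.20 in WTD cultures, 0.35, 0.61 and 0.30 in D7E and 0.18, -0.0033 and 0.08 in D7F, against -0.05, -0.15 and -0.26 in IM2. WTA culture 3 lay within the IM2 range, and the other 11 transfected cultures lay above it. The mean difference was 0.41 (SE 0.12, limma adjusted p = 0.0381), and D7E was called on its own (0.58, p = 0.0275). Leaving out any 1 IM2 culture ended the call in the mean (adjusted p = 0.0735, 0.0773 and 0.144), and 16 of 25 alternative settings did. The D7E call was lost in 9 of 26, among them without D7E culture 1 or 2 or IM2 culture 3.

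Srsf9, an SR protein with a short RS domain and a probe on part II, went the other way. Its log2 ratios were -0.77, -0.39 and -0.38 in WTA cultures, -0.22, -0.31 and -0.39 in WTD cultures, -0.44, -0.23 and 0.06 in D7E and -0.84, -0.46 and -0.23 in D7F, against 0.03, 0.11 and 0.22 in IM2. D7E culture 3 overlapped the IM2 cultures, and the other 11 transfected cultures were below them. The mean difference was -0.51 (SE 0.14, limma adjusted p = 0.031), with WTA called on its own (-0.64, p = 0.0381). Without IM2 culture 1, 2 or 3 the adjusted p in the mean was 0.0722, 0.0622 and 0.116, and 10 of 25 alternative settings ended the call. The WTA call was lost in 17 of 26, among them without any 1 IM2 culture, WTA culture 1, WTD culture 1 or 2, D7E culture 2 or D7F culture 2.

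The remaining SR and Tra2 probes were not called. Srsf3, the smallest SR protein, had a range of 1.03 that came from a value of 2.78 in IM2 culture 2, while its other cultures lay between -0.19 and 0.51. Srsf2, which binds exonic enhancers, had 2 probes whose differences were -0.10 (adjusted p = 0.539) and 0.59 (adjusted p = 0.26), and the second had a value of -1.99 in IM2 culture 1. Srsf4 had the smallest range of the group, 0.21. Of 3 Srsf1 probes 1 was tested, and its difference was -0.08 (adjusted p = 0.795). Srsf6, an SR protein, is named here after its values were seen. Its line means were 0.65, 0.51, 0.62 and 0.36 in WTA, WTD, D7E and D7F, against -0.02 in IM2. The difference of 0.55 (SE 0.21) was not called (limma adjusted p = 0.0984). Without WTA culture 2 it was called (0.63, adjusted p = 0.0326). Tra2b, an activator of exons with GAA-rich enhancers, had a difference of 0.19 (adjusted p = 0.378).

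**Figure D2:**
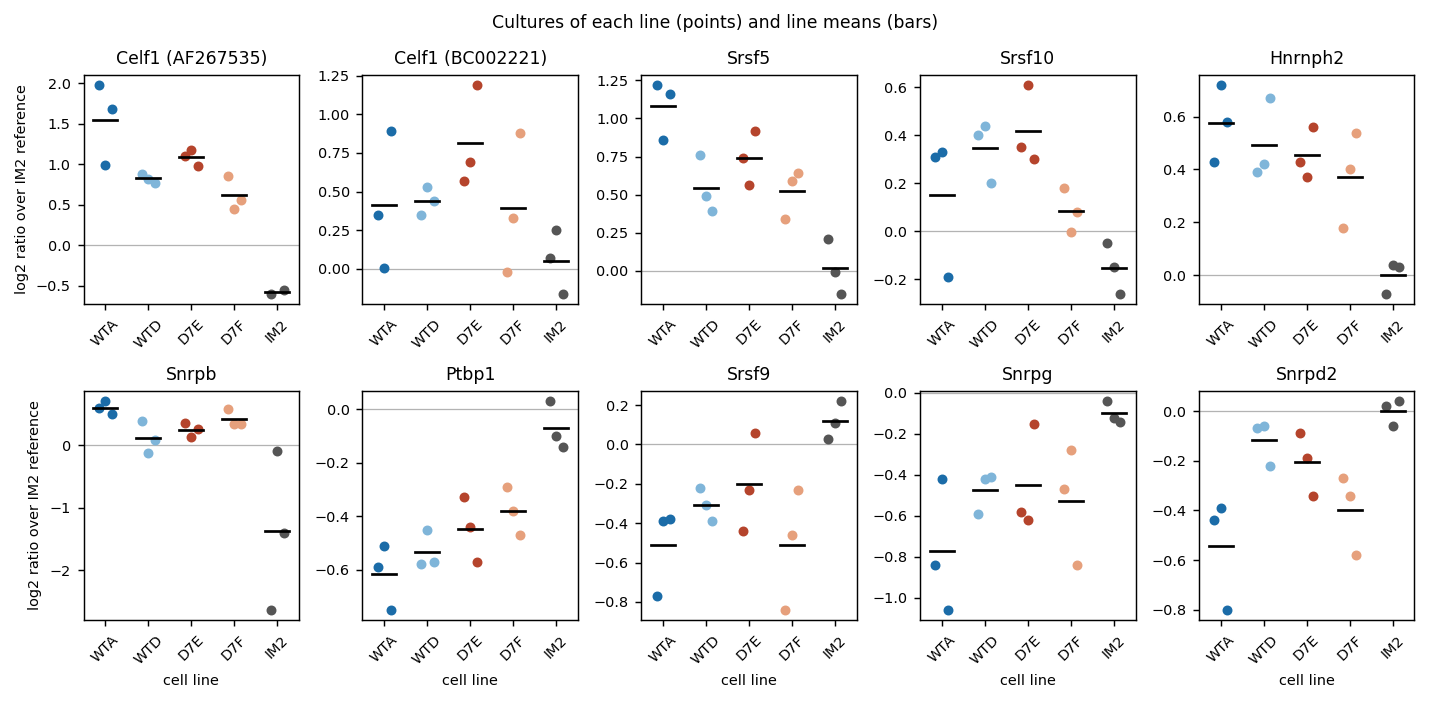
Log2 ratio over the IM2 reference for each culture (points, up to 3 a line) and the line mean (bars) of the 9 member genes called in at least 1 comparison with IM2, with both Celf1 probes. WTA, WTD, D7E and D7F stand left of IM2, and each panel has its own vertical axis. For the first Celf1 probe, Srsf5 and Hnrnph2 all 12 transfected cultures lie above the IM2 cultures, and for Ptbp1 and Snrpg all 12 lie below. The Snrpb difference comes with IM2 cultures spread from -2.63 to -0.09.

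For branch site and 3′ splice site recognition, 3 of 8 listed genes were tested and none was called (no member had an unadjusted p under 0.05). Sf3b1, the SF3B subunit that holds the branch site, had a difference of -0.30 (adjusted p = 0.53), Sf3a3 of the SF3A complex -0.22 (adjusted p = 0.715) and U2af1, which reads the AG of the 3′ splice site, 0.19 (adjusted p = 0.344). Sf3b1 values in WTA spread from -1.62 to 0.42, so its mean there was imprecise.

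All 7 Sm core proteins were tested, with 1 called higher and none lower in the mean, and Snrpg and Snrpd2 called lower in WTA. Snrpb encodes the SmB and SmB′ proteins of the ring. The cultures had log2 ratios of 0.59, 0.70 and 0.50 in WTA cultures, 0.39, -0.12 and 0.08 in WTD cultures, 0.35, 0.12 and 0.25 in D7E and 0.57, 0.34 and 0.33 in D7F, against -2.63, -0.09 and -1.40 in IM2. WTD culture 2 overlapped IM2, and the transfected cultures were close together while the IM2 cultures were far apart. The SD was 1.27 in IM2 and 0.10 to 0.26 in the transfected lines. The fit shares 1 estimate of spread over all lines, so its SE does not reflect the IM2 spread alone. The mean difference was 1.71 (SE 0.35, 3.28-fold, limma adjusted p = 0.00748), and WTA (1.97, p = 0.0145), D7E (1.61, p = 0.0338) and D7F (1.78, p = 0.0409) were called. The reference was itself IM2, yet the IM2 mean was -1.37, while the transfected line means were 0.12 to 0.60. Most of the difference thus lay in IM2 cultures reading below their own reference. The line calls were less stable than that of the mean: of 26 alternative settings 4 kept the D7F call, 13 the D7E call and 22 the WTA call. The D7F call was lost on leaving out any 1 culture other than IM2 culture 2, and the D7E call without any 1 D7E culture, IM2 culture 1 or IM2 culture 3. One IM2 array, that of culture 1 with the culture RNA in channel 2, read -4.82 and its dye partner -0.45. Without IM2 culture 1 the mean difference was 1.08 (adjusted p = 0.025) and without IM2 culture 2 it was 2.36 (adjusted p = 0.000211). Turning the signs of all IM2 arrays made it -1.03 (adjusted p = 0.0594).

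Snrpg, the SmG protein, with its probe on part II, was lower in all 12 transfected cultures than in every IM2 culture. Its log2 ratios were -0.84, -0.42 and -1.06 in WTA cultures, -0.59, -0.42 and -0.41 in WTD cultures, -0.58, -0.62 and -0.15 in D7E and -0.47, -0.28 and -0.84 in D7F, against -0.04, -0.12 and -0.14 in IM2. D7E culture 3 lay next to the lowest IM2 culture. WTA was called (-0.67, SE 0.19, limma adjusted p = 0.0375), and the mean of the 4 lines differed by -0.46 (adjusted p = 0.0577) and was not. The mean was called in 5 alternative settings: with probes measured in all 15 cultures (adjusted p = 0.0308), with the IM2 signs turned (adjusted p = 0.0103), and without D7E culture 3 (adjusted p = 0.041), D7F culture 2 (adjusted p = 0.0485) or WTA culture 2 (adjusted p = 0.0285). The WTA call was lost without WTA culture 1 or 3, without WTD culture 2 and without any 1 IM2 culture (adjusted p = 0.108, 0.11, 0.0514, 0.1, 0.0597 and 0.0726).

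Snrpd2, the SmD2 protein, had log2 ratios of -0.44, -0.39 and -0.80 in WTA cultures, -0.07, -0.06 and -0.22 in WTD cultures, -0.09, -0.19 and -0.34 in D7E and -0.27, -0.34 and -0.58 in D7F, against 0.02, -0.06 and 0.04 in IM2. The 3 WTA, 3 D7E and 3 D7F cultures lay below every IM2 culture, and a WTD culture reached the IM2 range. The Snrpd2 probe was on part II. WTA was called (-0.54, SE 0.15, limma adjusted p = 0.0287), and the mean of the 4 lines was not (-0.32, adjusted p = 0.0805). With probes measured in all 15 cultures the mean was called (adjusted p = 0.0461). Leaving out WTA culture 1 or 3, or IM2 culture 1 or 3, ended the WTA call (adjusted p = 0.0511, 0.0856, 0.075 and 0.0741). The other 4 Sm genes were not called. Snrpf and Snrpe had the 2 smallest ranges over the lines among the 45 probes, 0.12 and 0.14, Snrpd1 differed by 0.07 (adjusted p = 0.833) and Snrpd3 by 0.21 (adjusted p = 0.494).

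No U1 or U2 specific protein was called in the mean of the 4 lines (5 of 5 genes tested, none with an unadjusted p under 0.05). Snrnp70, the RNA-binding protein of the U1 snRNP that SR proteins contact, had the widest range, 1.19, with values of 2.02 and -0.23 in 2 WTA cultures, and its difference from IM2 was -0.32 (adjusted p = 0.68). Snrpc, a U1 protein that stabilises pairing with the 5′ splice site, differed by 0.38 (adjusted p = 0.356) and had a value of -1.29 in IM2 culture 1. Snrpb2 and Snrpa1, the U2 proteins B″ and A′, had ranges of 0.23 and 0.28. Snrpa, which binds a stem-loop of U1 RNA, differed by -0.12 (adjusted p = 0.335).

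Celf1 had the largest called difference in WTA, 2.13, among the member probes. Celf1 is an RNA-binding protein that regulates alternative exons and the decay of GU-rich mRNAs. The first of its probes (AF267535, part I) had log2 ratios of 1.98, 0.99 and 1.68 in WTA cultures, 0.88, 0.82 and 0.77 in WTD cultures, 1.10, 1.17 and 0.98 in D7E and 0.86, 0.44 and 0.56 in D7F, against -0.60 and -0.56 in the 2 measured IM2 cultures. The groups did not overlap, and D7F culture 2 was the lowest of the transfected cultures. The mean difference was 1.60 (SE 0.20, 3.03-fold, limma adjusted p = 0.000461), and every line was called (WTA adjusted p = 0.000381, WTD 1.40 and p = 0.00569, D7E 1.66 and p = 0.00157, D7F 1.20 and p = 0.0148). All 24 transfected arrays were positive, from 0.22 to 2.43, while the 5 measured IM2 arrays read -1.24 to 0.12. The IM2 mean was -0.58, below the IM2 reference, and that shortfall is part of the difference of 1.60. Turning the signs of all IM2 arrays left a difference of 0.44 (adjusted p = 0.14) in the mean and 0.04 (adjusted p = 0.936) in D7F. The D7F call was lost in 7 of 25 alternative settings, among them either channel alone, without D7F culture 1 (adjusted p = 0.0516) and without IM2 culture 3 (adjusted p = 0.0658). The WTD and D7E calls were each lost in 2 of 25 and the WTA call in 1.

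The second Celf1 probe (BC002221, part II) gave the same sign and was not called. Its log2 ratios were 0.35, 0.0042 and 0.89 in WTA cultures, 0.35, 0.53 and 0.44 in WTD cultures, 0.57, 0.69 and 1.19 in D7E and -0.02, 0.33 and 0.88 in D7F, against 0.07, 0.25 and -0.16 in IM2. WTA culture 2 and D7F culture 1 lay within the IM2 range. The difference was 0.47 (SE 0.20, limma adjusted p = 0.139). D7E against IM2 was called for this probe with probes measured in all 15 cultures (0.77, adjusted p = 0.0373). The probes ranked the lines differently, with WTA highest for the first and D7E for the second.

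Ptbp1, a repressor of many exons that muscle and nerve cells include, was lower in every transfected line. Log2 ratios were -0.59, -0.51 and -0.75 in WTA cultures, -0.58, -0.45 and -0.57 in WTD cultures, -0.33, -0.44 and -0.57 in D7E and -0.29, -0.38 and -0.47 in D7F, against 0.03, -0.10 and -0.14 in IM2. No transfected culture reached the IM2 range, and the ratio was negative on all 24 transfected arrays. The mean difference was -0.42 (SE 0.08, 1.34-fold lower, limma adjusted p = 0.00624), with WTA (-0.55, p = 0.00712), WTD (-0.47, p = 0.0229) and D7E (-0.38, p = 0.0382) called and D7F at -0.31 (adjusted p = 0.127). The call in the mean was lost without the poor arrays (-0.35, adjusted p = 0.108) and in channel 1 alone (-0.33, adjusted p = 0.11). Of 26 alternative settings, 4 ended the WTA call, 9 the WTD call and 16 the D7E call. Leaving out any 1 IM2 or WTD culture, D7E culture 2 or 3 or D7F culture 2 ended the D7E call, and leaving out WTD culture 1 or 3 or IM2 culture 1 ended the WTD call.

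The other tested regulators were not called. Mbnl1, which promotes muscle-type splicing and is sequestered by repeat RNA in myotonic dystrophy, had line means between -0.10 and 0.11 and a difference from IM2 of 0.04 (adjusted p = 0.831). Its relative Mbnl2 differed by 0.11 (adjusted p = 0.629). Rbm3, a cold-induced RNA-binding protein, differed by 0.20 (adjusted p = 0.208). Its WTA cultures lay between 0.24 and 0.43, against -0.25 to 0.09 in IM2. WTA was called for it with probes measured in all 15 cultures (0.38, limma adjusted p = 0.0418). The tested probe of Nono, a paraspeckle protein, differed by -0.17 (adjusted p = 0.404).

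All 12 transfected cultures lay above every IM2 culture for 3 of the 45 member probes, those of Celf1 (first probe), Srsf5 and Hnrnph2, where 4.74% of all tested probes did. They lay below for 2, Ptbp1 and Snrpg, against 6.79% of all tested probes.

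**Figure D3:**
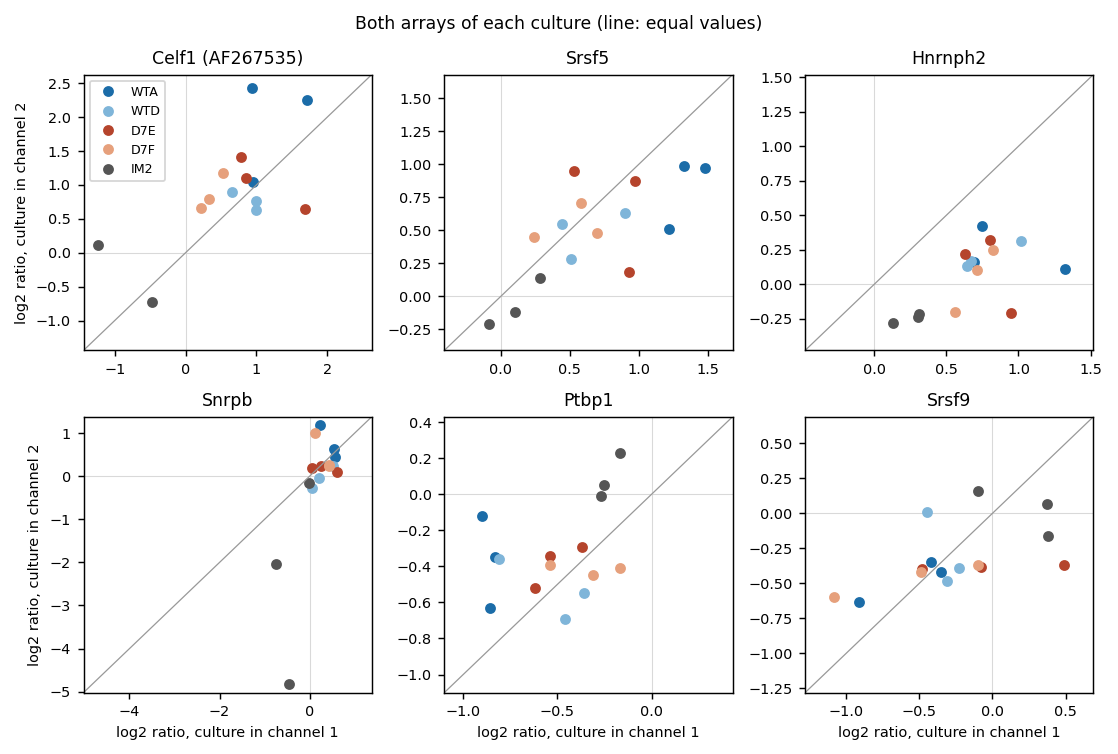
Log2 ratio over the IM2 reference on the array with the culture RNA in channel 1 (horizontal) and in channel 2 (vertical), a point for each culture with both arrays measured, for 6 members called in the mean of the 4 lines. The grey line marks equal values. Celf1 and Srsf5 transfected cultures are positive on both axes and Ptbp1 negative on both, Hnrnph2 lies to the right of the line in every culture, and the Snrpb point at -4.82 is IM2 culture 1.

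Promoter sequence is shown for Srsf5, Hnrnph2 and Ptbp1, the called genes with a single probe whose transfected and IM2 cultures did not overlap in the mean comparison. The sequences are the 250 bases before the gene start in RefSeq on build GRCm38.p6, all on the + strand, at chr12:80945249-80945498 (Srsf5), chrX:134600929-134601178 (Hnrnph2) and chr10:79854182-79854431 (Ptbp1). Capitals mark CCAAT, the CCAAT box, and CGGAAG, a form of the ETS factor site. Both were matched on either strand (ATTGG and CTTCCG in reverse), and no matches overlapped.
Srsf5: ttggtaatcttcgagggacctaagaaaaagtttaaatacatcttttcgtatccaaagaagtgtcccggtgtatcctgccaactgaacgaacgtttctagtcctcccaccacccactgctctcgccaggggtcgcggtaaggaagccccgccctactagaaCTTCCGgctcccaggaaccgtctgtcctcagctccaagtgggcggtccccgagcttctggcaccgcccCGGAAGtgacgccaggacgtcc
Hnrnph2: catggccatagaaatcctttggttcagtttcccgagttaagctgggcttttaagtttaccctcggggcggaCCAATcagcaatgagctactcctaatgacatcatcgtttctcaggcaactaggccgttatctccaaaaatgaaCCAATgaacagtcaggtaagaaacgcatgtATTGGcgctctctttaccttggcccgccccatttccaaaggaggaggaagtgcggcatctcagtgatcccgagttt
Ptbp1: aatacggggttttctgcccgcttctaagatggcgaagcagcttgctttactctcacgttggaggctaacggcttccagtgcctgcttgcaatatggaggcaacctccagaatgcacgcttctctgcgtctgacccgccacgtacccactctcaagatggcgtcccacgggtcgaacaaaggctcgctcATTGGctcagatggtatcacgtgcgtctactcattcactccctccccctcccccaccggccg
Srsf5 held 2 CGGAAG matches and 0 CCAAT boxes. Hnrnph2 held 3 CCAAT boxes and 0 CGGAAG matches, and Ptbp1 1 CCAAT box and 0 CGGAAG matches. Neither string was in all 3, and shorter or other forms of ETS sites were not counted. CCAAT was in 34.5% of 27025 promoters of the same length and in 20 of 39 tested members with a promoter, and CGGAAG in 13.8% and in 14 of 39. Of the 9 called genes 8 had a promoter entry, and each motif was in 4 of the 8. A match is a description of these letters, and the motifs were chosen after the sequences were seen.

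Between the transfected lines no member probe was called, in any of 5 comparisons. For D7E against WTA, the high pair, 0 of 45 member probes were called and 4 had an unadjusted p under 0.05 (lowest adjusted p = 0.267), where 1.64% of all tested probes were called. For D7F against WTD, the low pair, 0 were called and 0 had an unadjusted p under 0.05 (lowest adjusted p = 0.751), with 0.453% called. Mutant against wild-type, over both levels, called 0 with 2 at an unadjusted p under 0.05 (lowest adjusted p = 0.734), against 0.196% of all probes. High against low called 0 with 4 (lowest adjusted p = 0.172), against 0.381%. The contrast of WTD and D7E with WTA and D7F, which asks whether the effect of level differed by genotype, called 0 with 3 (lowest adjusted p = 0.139), against 2.37%. These percentages count adjusted calls. Over all 9709 tested probes, 1425, 706, 650, 768 and 1389 had an unadjusted p under 0.05 in these 5 comparisons, in this order.

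**Figure D4:**
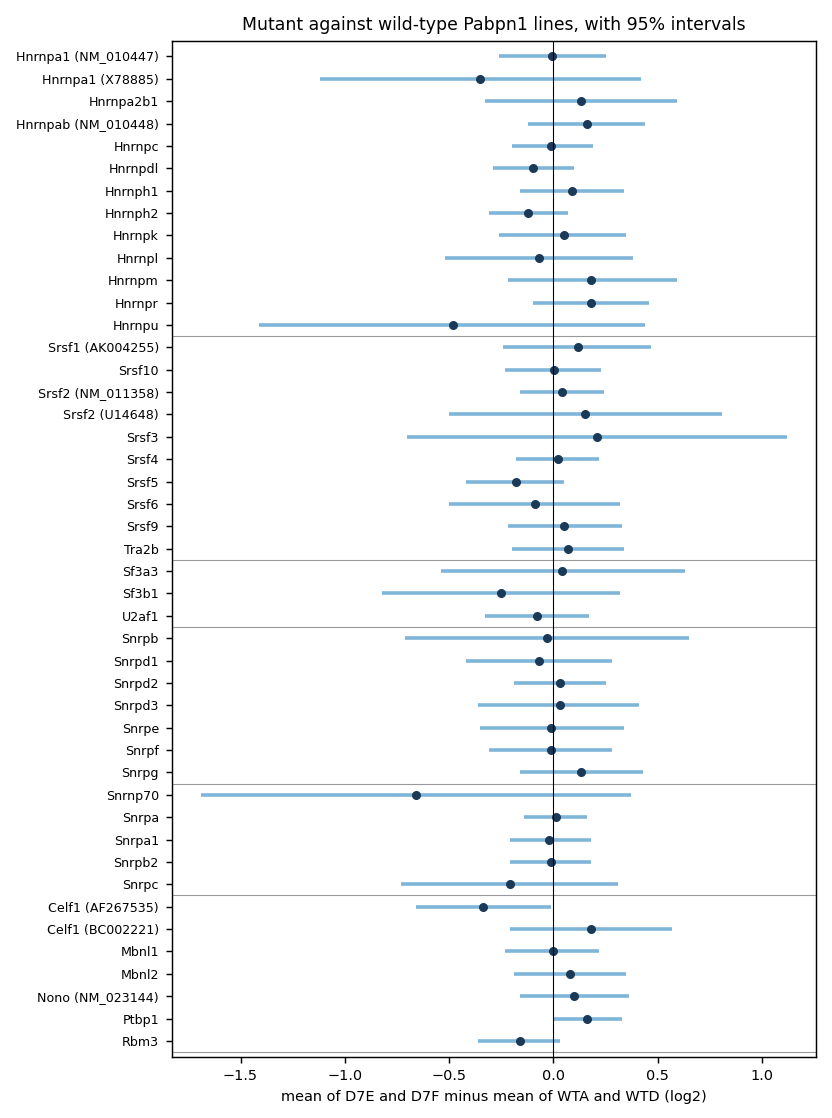
Difference between the mean of D7E and D7F and the mean of WTA and WTD (log2, points) with its 95% interval (bars) for the 45 tested member probes, grouped by role as in the map of line means. Positive values mean higher in the mutant lines. None was called, 41 of 45 intervals lie within 1 log2 unit on either side of 0, and the widest belongs to Snrnp70.

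The precision of these comparisons differed by probe. Half-widths of the 95% intervals for mutant against wild-type were 0.15 to 1.03 with a median of 0.28, and 41 of 45 intervals lay within 1 log2 unit (2-fold) of 0. The same held for 38 intervals of D7E against WTA, 39 of D7F against WTD, 41 of high against low and 40 of the level by genotype contrast. Intervals that include 0 do not show that the lines were alike. The first Celf1 probe had the lowest p in high against low (0.59, SE 0.15, 95% interval 0.27 to 0.92, limma adjusted p = 0.172). It was lower in mutant lines by an uncalled difference of -0.34 (interval -0.66 to -0.01, adjusted p = 0.734). The second Celf1 probe did not share that direction, with line means of 0.42, 0.44, 0.82 and 0.40 in WTA, WTD, D7E and D7F. In the same contrasts Srsf5 gave 0.37 for high against low (adjusted p = 0.284) and -0.18 for mutant against wild-type (adjusted p = 0.803), and Ptbp1 gave -0.07 (adjusted p = 0.872) and 0.16 (adjusted p = 0.741). Snrpd2 had 0.31 in the level by genotype contrast (SE 0.10, adjusted p = 0.139), with line means of -0.12 in WTD and -0.20 in D7E, against -0.54 in WTA and -0.40 in D7F. Without WTA culture 2, the first Celf1 probe was called in D7E against WTA (-0.75, adjusted p = 0.0384) and in high against low (0.73, adjusted p = 0.0081). Over all cultures the second Celf1 probe was higher in D7E (0.82) than in WTA (0.42).

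**Figure D5:**
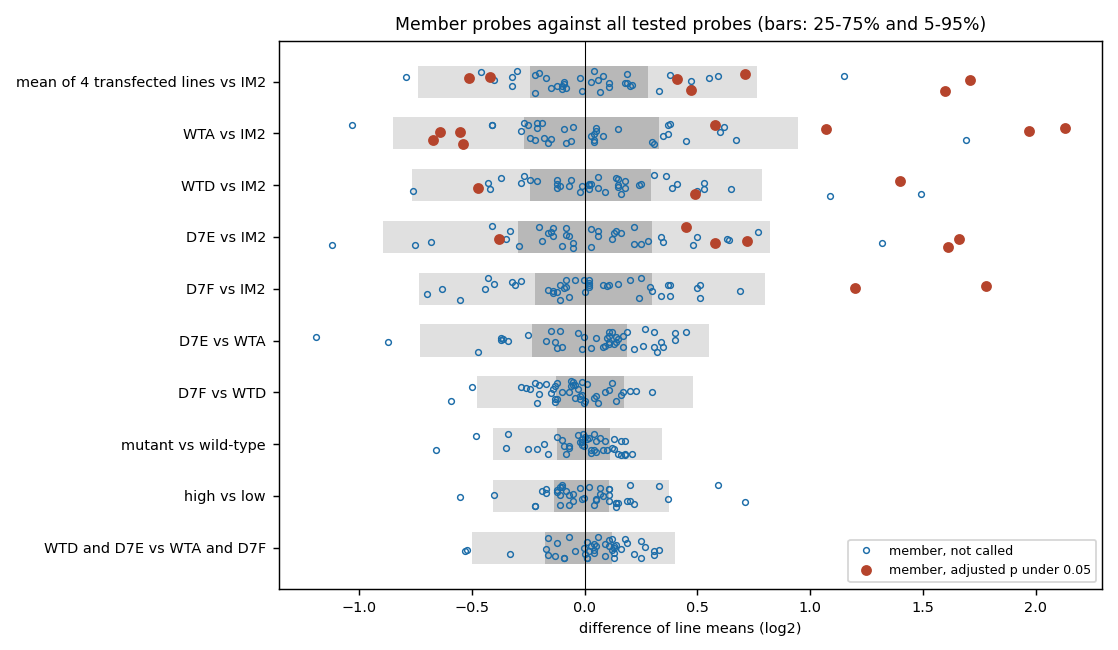
Differences of line means (log2) of the 45 member probes in 10 comparisons (rows), called members as filled red points and others as open blue circles, over bars for the middle 25-75% and 5-95% of all 9709 tested probes. Each difference is the first-named line or lines minus the second. Red points occur only in the 5 comparisons with IM2, and in the other 5 rows most members lie within the wide bars.

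A second list of 126 other spliceosome and RNA processing genes, chosen with earlier results of these data known, had 97 tested probes of 91 genes. Relative to IM2, the mean of the 4 lines had 5 of them higher and 9 lower, close to the 6.41% and 8.84% of all tested probes, with a median difference of 0.03, the same as over all tested probes. Matr3, a nuclear matrix RNA-binding protein mutated in a human distal myopathy, averaged -1.34 ± 0.44 in WTA and between -1.07 and -0.99 in WTD, D7E (n = 2) and D7F, against 0.01 ± 0.26 in IM2 (SD, otherwise n = 3), a difference of -1.11 (limma adjusted p = 0.00174). Khdrbs1, the Sam68 splicing regulator, differed by -0.40 (adjusted p = 0.00633), Lsm2 of the U6 snRNP by -0.46 (adjusted p = 0.00962) and Tial1, which promotes weak 5′ splice sites, by -0.50 (adjusted p = 0.0148). Snrpn, which encodes a protein nearly identical to that of Snrpb, differed by 0.70 (adjusted p = 0.00797) and the cold-induced Cirbp by 0.84 (adjusted p = 0.034). Whether the Snrpb and Snrpn probes share signal was not tested. Cwc27, a spliceosomal cyclophilin, differed by -1.17 (adjusted p = 0.0341), with 2 IM2 cultures measured and a SD between them of 1.44. Gemin7 of the SMN complex differed by -0.54 (adjusted p = 0.0161).

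Between the transfected lines, Qk and Ptbp2 were the called genes of this second list. Qk, the quaking RNA-binding protein that regulates muscle exons, averaged -0.64 ± 0.17 in D7E, against -0.02 ± 0.19 in WTA (SD, n = 3) for its U44941 probe, a difference of -0.62 (limma adjusted p = 0.0385). The same Qk probe had -0.41 in the level by genotype contrast (adjusted p = 0.0415). Another Qk probe, NM_021881, was higher in WTA than in IM2 (0.80, limma adjusted p = 0.0406). Its line means were 0.83, 0.21, 0.53 and 0.42 in WTA, WTD, D7E and D7F, against 0.04 in IM2, and those of the U44941 probe were -0.02, -0.37, -0.64 and -0.17, against 0.06 in IM2. Both probes had their highest transfected mean in WTA. Ptbp2, the neuronal paralog of Ptbp1, had 0.38 in the level by genotype contrast (SE 0.08, adjusted p = 0.0384), with line means of 0.27 in WTD and 0.02 in D7E, against -0.27 in WTA and -0.19 in D7F.

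Some lists of cell markers moved along with the comparison to IM2, and others did not. The median log2 ratio over 17 skeletal muscle marker probes (14 of 16 genes tested) was 0.41, 0.35, 0.27 and 0.29 in WTA, WTD, D7E and D7F, against -0.01 in IM2, and 5 were called higher and 0 lower in the mean. By line, 3 were higher in WTA, 2 in D7F and 2 in D7E, where 1 was lower, and 0 were called in WTD. For 10 of 16 proliferation genes the medians were -0.63, -0.34, -0.92 and -0.94, against 0.05 in IM2, with 0 higher and 5 lower. For 8 fibroblast probes they were -0.68, -0.81, -1.0 and -0.68, against 0.07 in IM2, with 0 higher and 4 lower. For 4 smooth muscle, 2 adipocyte and 2 endothelial probes the median differences of the mean from IM2 were 0.05, 0.20 and 0.18. In that comparison 0 of these probes were called. The part of all these markers in the differences of the splicing factors was not tested. Ratios to a reference do not show whether a marker is present or absent, and no leukocyte marker was tested.

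Of the 60 member probes 15 could not be tested, 11 of them on part II, and in all 15 the IM2 line had fewer than 2 measured cultures. For 10 genes no probe was left: Hnrnpa0, Hnrnpd, Prpf19, Prpf8, Sf1, Sf3a1, Sf3a2, Sfpq, Tra2a and U2af2. This took out both catalytic core proteins on the list, Prpf8, the large protein at the heart of the spliceosome, and Prpf19, a ubiquitin ligase needed for its activation. Each untested probe was measured on 18 to 26 of its 30 arrays. Among them, Tra2a ratios were all negative where measured (cultures from -2.06 to -0.14) and those of the Srsf1 probe AK018176 all positive (0.24 to 1.71), with no comparison made.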

How the data were processed

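Arrays with 2 colours, of 2 parts (30 arrays each) were used for 15 cultures, 3 from each of 5 lines. The deposited values are ratios with no unit stated by the authors, taken here as log10 ratios because they stop exactly at -2 and 2 (a ratio of 100, which base 2 would make 4), and were multiplied by 3.3219 to give log2. How arrays were scanned, background-corrected and normalised is not given in the sources used here. All ratios were read as culture over reference because Pabpn1 was positive on 24 of 24 transfected part I arrays. Part II and the IM2 arrays have no such marker. Among the called members, Srsf9, Snrpg and Snrpd2 have their probes on part II, so their direction rests on this reading. The dye of WTA culture 3 on part I was taken from its channel sources, which its title contradicts. For D7F culture 1 one description calls the level high, and the title was used.

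Values at the limits were treated as not measured. Identical rows were collapsed, and probes were named by Entrez identifier through the mouse RefSeq gene table (GRCm38.p6) or else by the platform annotation. A culture needed both dye orientations, and a probe 2 cultures in every line. Each part was fitted with limma 3.58.1 in R 4.3.3 (lmFit, eBayes) on all 15 cultures, and p-values were Benjamini-Hochberg adjusted over both parts. Each p-value reflects how far cultures of the same line spread, with a single estimate of spread for each probe shared by all lines. It does not measure the spread between isolates. The 3 cultures a line limit the precision, because the arrays of a culture were averaged and are not replicates. The fit code was also run on simulated data, with normal noise of the same SD in all lines for a given probe. That run cannot speak to unequal spread between lines, poor arrays or dye effects, because it held none of them.

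Culture numbers were not used as pairs. Deviations from the line means correlated between same-numbered cultures with a median of -0.01 on part I and 0.05 on part II. Called members are all named. Other members are given by role, with the largest and smallest ranges and genes with several probes. For the second list up to 8 called genes a comparison are given, not strictly by size of the difference. The members and lists were chosen with earlier results of these data known.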

Additional observations from a re-analysis of the deposited data

How the results depend on the processing

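Counts of called member probes depended on the settings, and so did the counts over all tested probes. In the mean of the 4 lines against IM2 (7), 4 were called after turning the signs of all IM2 arrays and 3 without the arrays of poor quality. Over all probes this comparison had 1480 of 9709 called, 1794 of 9709 with signs turned and 397 of 11549 without poor arrays. For WTA against IM2 (8, 4 higher and 4 lower), 5 were called with limit values kept, 5 with arrays centred on their median (4 higher, 1 lower), 3 with arrays centred and scaled (3 higher, 0 lower), 3 without poor arrays, 3 in channel 1 alone, 1 in channel 2 alone and 0 with only those lines in the fit. Over all probes, WTA against IM2 had 1121 of 9709 called, and 374 of 11549 without poor arrays. It had 590 of 12864 in channel 1, 288 of 12857 in channel 2 and 1 of 10627 with only those lines. For WTD against IM2 (3) the counts were 1 with limit values kept, 2 centred (1 higher, 1 lower), 6 centred and scaled (5 higher, 1 lower), 1 without poor arrays, 0 in channel 2 alone, 5 with probes measured in all 15 cultures and 1 with only those lines. Over all probes it had 683 of 9709 called, 1143 of 9709 centred and scaled and 220 of 12857 in channel 2. D7E against IM2 (6, 5 higher and 1 lower) gave 2 with limit values kept, 4 higher and 0 lower centred and scaled, 2 without poor arrays, 2 in channel 1, 0 in channel 2 and 1 with only those lines. D7F against IM2 (2) gave 1 with limit values kept, 1 with IM2 signs turned and 0 without poor arrays, in either channel or with only those lines. Over all probes D7E had 1199 of 9709 called and 421 of 12857 in channel 2. D7F had 438 of 9709 called, 708 of 9709 with IM2 signs turned and 17 of 10800 with only those lines. The test for any difference (3) gave 0 in channel 2 alone and 5 with probes measured in all 15 cultures. An alternative added after seeing the data, in which 1 measured dye orientation was enough, gave 5 for WTA, 1 for WTD, 2 for D7E and 1 for D7F. With IM2 signs turned, Snrpb reversed to -1.03 in the mean, -0.77 in WTA, -1.13 in D7E and -0.96 in D7F.

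Leaving out 1 culture gave 5 to 9 called members in the mean, 5 to 9 for WTA (5 without WTA culture 1, IM2 culture 1 or IM2 culture 3), 1 to 4 for WTD (1 without WTD culture 1 or 3 or IM2 culture 1), 2 to 7 for D7E (2 or 3 without D7E culture 1 or 2 or IM2 culture 1 or 3), 0 to 2 for D7F (2 only without IM2 culture 2), 2 to 4 for any difference, 0 to 1 for D7E against WTA and for high against low (1 without WTA culture 2, Celf1 in both), and 0 to 0 in the other 3 comparisons. With the culture number as a replicate block, 7 members were called in the mean, 8 for WTA, 4 for WTD, 5 for D7E, 2 for D7F, 4 for any difference and 0 between transfected lines. Under that block Snrpb lost its call in D7E (adjusted p = 0.0515) and D7F (adjusted p = 0.0633), and Srsf9 was called lower in D7F (-0.63, adjusted p = 0.0449). Same-numbered cultures correlated with a median of -0.01 on part I and 0.05 on part II. Of these pairs, 8 of 30 on part I and 7 of 30 on part II exceeded 0.1. Pairs with other numbers exceeded it in 12 of 60 and 7 of 60. The medians do not show whether some cultures that share a number were handled together. Over all probes, the mean comparison had 1480 calls, 802 without IM2 culture 1 and 397 without poor arrays. Intensities were not used, so signal over background is unknown.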
